A study of Mus musculus with 6 samples.

Results

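Collagen chain genes were taken as every row of the count table whose gene name has the form Col, a type number, the letter a and a chain number. This gave 44 of the 34665 rows, and 34 of them passed the filter on low counts and were tested. The other 10 had at most 32 counts in any library: Col26a1, Col4a6, Col6a4, Col6a5, Col6a6, Col19a1, Col22a1, Col24a1, Col17a1 and Col25a1. RNA came from bulk tumours of B16, a mouse melanoma line, all labelled with the genotype WT. The ICI group had received an immune checkpoint inhibitor alone (replicates 1, 2 and 3), and the RT_ICI group had received radiotherapy as well as immunotherapy (replicates 1, 2 and 4). All tumours therefore had immunotherapy, and the comparison asks what differed where radiation was added. The sources used here do not give the inhibitor's target, the dose, the time of harvest, the mouse strain or whether the tumour lay in the irradiated field. The labels do not state that each library is a separate animal. The p-values therefore cover library-to-library spread, which may be technical.

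A collagen molecule is a triple helix of 3 alpha chains, each encoded by its own gene. Fibrillar collagens such as types I, III and V build the fibrils of connective tissue, and are made in tumours mainly by fibroblasts. Type IV collagen forms the sheet-like network of basement membranes around vessels. Fibril-associated collagens with interrupted helices (FACIT) sit on fibril surfaces, and smaller classes form beaded filaments, anchoring fibrils, hexagonal networks or membrane-bound molecules.

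The 6 libraries held 22543721 to 45624013 counts, and 33392 to 105922 of these lay on collagen genes. RT_ICI 1 had counts on 29748 rows, against 22763 to 24891 rows in the other libraries. Mitochondrially encoded RNAs and their nuclear copies took 6.45% to 7.39% of ICI counts and 16.6% to 21.8% of RT_ICI counts. Levels are given as CPM, library-scaled counts (TMM), or as FPKM, the same value per kilobase of exon. Genes are compared with one another only in FPKM.

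Collagen expression as a whole did not separate the groups. Collagen genes took 0.156%, 0.0879% and 0.246% of the counts in ICI 1, 2 and 3, and 0.163%, 0.183% and 0.152% in RT_ICI 1, 2 and 4. The ICI libraries lay on both sides of the RT_ICI libraries. The means were 0.163% ± 0.0791 (SD, n = 3) and 0.166% ± 0.0156 (SD, n = 3), a difference of 0.00294 percentage points. Counting error was small beside this spread, since the 95% Wilson interval of each share reached at most 0.00161 percentage points to either side. With mitochondrially encoded RNAs and their copies left out of the totals, the shares were 0.167%, 0.0949% and 0.263% in ICI and 0.208%, 0.224% and 0.183% in RT_ICI, and the groups again overlapped.

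Individual chains did differ. Col9a2, Col20a1, Col7a1, Col28a1 and Col5a3 were higher in RT_ICI at an adjusted p under 0.05 (edgeR quasi-likelihood test, Benjamini-Hochberg over all 16924 tested genes), and 0 collagens were lower. The 5 are 14.7% of the 34 tested collagens, where 4.46% of all tested genes were called higher and 4.72% lower. Before adjustment, 7 collagens were higher and 1 was lower with p under 0.05 in that test, where 15.7% of all tested genes were higher and 15.8% lower. DESeq2 called 6 collagens higher and 1 lower, where it called 10.3% of all tested genes higher and 10.1% lower. The median log2 fold change (RT_ICI minus ICI) was 0.50 over the tested collagens and 0.014 over all tested genes, with 24 collagens above 0 and 10 below. In bulk tumours, fewer cells of a type and less RNA per cell cannot be told apart.

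The number of calls depended on single libraries. The calls numbered 0 when ICI 1, ICI 3, RT_ICI 2 or RT_ICI 4 was left out, where at most 81 genes of the whole table were called higher. In those 4 edgeR fits, in the same order, 6, 10, 7 and 6 collagens were higher at an unadjusted p under 0.05, where 10.4%, 11.5%, 12.3% and 13.3% of all tested genes were. The log2 fold changes of the 5 genes in these fits were 1.68 to 2.01 for Col9a2, 1.13 to 1.40 for Col20a1, 1.49 to 2.03 for Col7a1, 0.87 to 1.13 for Col28a1 and 0.90 to 1.19 for Col5a3. Their sign was fixed by the lack of overlap between the groups, and is no separate support. Without ICI 2 there were 2 calls of 36 tested, Col20a1 and Col9a2, where 234 of all 17388 tested genes were called higher. The median log2 fold change over the collagens was then 0.18. Without RT_ICI 1 there were 7 of 35 (20%), with Col11a2 and Col16a1 added to the 5, where 8.91% of all tested genes were called higher. The median over the collagens was then 0.084.

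The 5 called genes lie on 4 chromosomes, so they do not form a single cluster. The sequences just before 4 of the gene starts are shown because these genes were called in the same direction. They are RefSeq windows on GRCm38.p6, the 250 bases before the start on the gene's own strand, written 5′ to 3′. Capitals mark matches on either strand to the SOX core ACAAAG, the GC box GGGCGG or the CCAAT box CCAAT, and none of the matches overlap. The window of Col20a1 overlaps an exon of the noncoding gene BX649560.1. Most of the window before Col9a2 is annotated as an exon of that gene, so it is not printed.

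Col28a1, chr6:8192618-8192867, minus strand: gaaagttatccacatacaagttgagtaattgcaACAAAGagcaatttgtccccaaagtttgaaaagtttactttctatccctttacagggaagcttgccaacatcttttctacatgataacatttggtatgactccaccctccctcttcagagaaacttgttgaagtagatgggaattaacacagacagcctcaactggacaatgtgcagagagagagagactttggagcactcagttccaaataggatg

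Col20a1, chr2:180986285-180986534, plus strand: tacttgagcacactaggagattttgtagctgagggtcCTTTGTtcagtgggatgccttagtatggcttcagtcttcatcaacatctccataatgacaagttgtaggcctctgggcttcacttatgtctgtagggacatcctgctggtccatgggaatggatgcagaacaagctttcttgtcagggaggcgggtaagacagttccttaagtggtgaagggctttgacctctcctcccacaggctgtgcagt

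Col7a1, chr9:108953336-108953585, plus strand: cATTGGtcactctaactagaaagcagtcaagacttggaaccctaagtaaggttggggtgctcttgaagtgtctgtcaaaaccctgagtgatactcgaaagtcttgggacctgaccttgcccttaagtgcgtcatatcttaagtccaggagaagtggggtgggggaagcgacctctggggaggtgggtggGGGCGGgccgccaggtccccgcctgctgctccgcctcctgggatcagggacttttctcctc

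Col5a3, chr9:20815068-20815317, minus strand: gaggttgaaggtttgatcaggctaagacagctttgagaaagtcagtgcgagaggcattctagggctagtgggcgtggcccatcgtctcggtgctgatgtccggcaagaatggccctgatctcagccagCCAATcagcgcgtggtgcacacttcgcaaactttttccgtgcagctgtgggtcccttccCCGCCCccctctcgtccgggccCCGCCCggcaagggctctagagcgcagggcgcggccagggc

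The SOX core stood once in the window of Col28a1, at position -217 from the gene start, and once in that of Col20a1, at -213. It was present in 16.5% of all 32851 windows of the table, so a match in 2 of these 4 windows is a description only. Col7a1 had a GC box at -61 and a CCAAT box at -249. Col5a3 had GC boxes at -63 and -41 and a CCAAT box at -122. GC boxes were present in 32.7% of all windows and in 57.9% of the 38 collagen windows (35 of the 44 genes matched), and CCAAT in 33.8% and 34.2%. The E-box letters CACGTG or CATGTG, held by 17.6% of all windows, and the TATA box letters TATAAA, held by 12.4%, were absent from these 4 windows.

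Among the FACIT chains, 2 of 7 tested members rose and 0 fell, with a class median log2 fold change of 0.55. Col9a2 (ENSMUSG00000028626, chromosome 4, 121039385 to 121055322 on GRCm38) encodes 1 of the 3 chains of type IX collagen, which coats cartilage fibrils. It stood at 3.91, 3.72 and 2.63 CPM in ICI 1, 2 and 3 and at 8.62, 16.7 and 13.2 CPM in RT_ICI 1, 2 and 4. All RT_ICI libraries lay above all ICI libraries, with RT_ICI 2 highest. The log2 fold change was 1.91 (SE 0.30), a 3.76-fold difference, with an edgeR adjusted p of 0.026. Its partner chains were not called: Col9a1 had a log2 fold change of 0.53 (edgeR adjusted p = 0.38) and Col9a3 one of 0.63 (0.283), and both overlapped between the groups. In FPKM the ratio of Col9a2 to Col9a1 was 1.70, 1.24 and 0.536 in ICI and 3.18, 2.97 and 2.06 in RT_ICI. An exact two-sided permutation test of this ratio gave p = 0.1, the smallest that 3 against 3 libraries allow, and 0.5 after adjustment over the 10 partner ratios computed.

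Col20a1 (ENSMUSG00000016356, chromosome 2, 180986535 to 181018363), a FACIT member described less fully than the others, stood at 11.5, 13.6 and 7.30 CPM in ICI and 25.1, 29.7 and 28.5 CPM in RT_ICI. The RT_ICI values were close to one another, and the lowest was well above the highest ICI value. The log2 fold change was 1.36 (SE 0.23, 2.57-fold, edgeR adjusted p = 0.0268). Col16a1, the FACIT chain with the highest FPKM, stood at 70.4, 62.5 and 82.9 CPM in ICI and 75.0, 130 and 112 CPM in RT_ICI. RT_ICI 1 fell within the ICI range, and the difference was not called (log2 fold change 0.55, edgeR adjusted p = 0.119). Col12a1 and Col14a1, chains that decorate type I fibrils, had log2 fold changes of -0.37 and -0.11 and were highest in ICI 3, without which they were at 0.46 and 0.47.

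**Figure D1:**
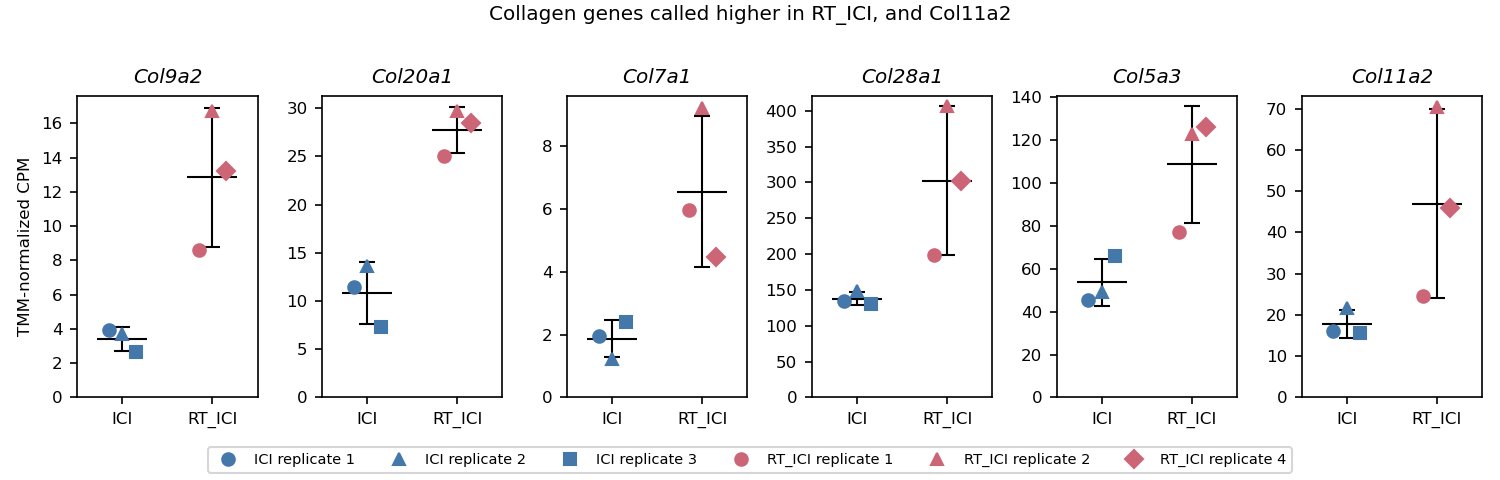
TMM-normalized CPM (vertical axes, each from 0) of the 5 collagen genes called higher in RT_ICI and of Col11a2, by group. Symbols are libraries, horizontal lines are group means and bars are SD (n = 3). In each panel the lowest RT_ICI library lies above the highest ICI library.

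The anchoring fibril and unclassed group held 2 tested members, and both rose. Col28a1 (ENSMUSG00000068794, chromosome 6, 7997808 to 8192617) encodes type XXVIII collagen, a chain known from the sheaths of peripheral nerve. It stood at 134, 149 and 131 CPM in ICI and at 199, 407 and 302 CPM in RT_ICI. The ICI libraries were within 1.14-fold of one another and all lay below RT_ICI 1, the lowest of its group. The log2 fold change was 1.13 (SE 0.24, 2.19-fold, edgeR adjusted p = 0.0368). Its level per length was 28.2 ± 1.95 FPKM (SD, n = 3) in ICI and 61.7 ± 21.2 FPKM (SD, n = 3) in RT_ICI. Col7a1 (ENSMUSG00000025650, chromosome 9, 108953586 to 108984875), the chain of the anchoring fibrils that tie epidermis to dermis, was scarce. It stood at 1.96, 1.23 and 2.40 CPM in ICI and 5.96, 9.19 and 4.48 CPM in RT_ICI, without overlap. The log2 fold change was 1.81 (SE 0.37, 3.51-fold, edgeR adjusted p = 0.0346).

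Marker genes of tissues in which these chains are known were read beside them. Of all tested genes, 17.8% had every RT_ICI library above every ICI library, and 19.4% had every one below. A lack of overlap in single markers is therefore a description only. S100b, a calcium-binding protein of Schwann cells that melanoma cells also make, stood at 148, 157 and 96.7 CPM in ICI and 192, 262 and 265 CPM in RT_ICI, without overlap (log2 fold change 0.84, SE 0.22, edgeR adjusted p = 0.0494). The Schwann and nerve genes Cdh19, Scn7a, Ncam1 and Prx were not called, with log2 fold changes of 0.21, 1.43, 0.40 and 0.45, and Scn7a and Ncam1 did not overlap between the groups. Gfra3, another gene of that lineage, was at 0 in 4 libraries. The part of Schwann cells in the Col28a1 difference was not tested. Among keratinocyte markers 0 of 3 tested were called, with 2.32 to 3.72 CPM summed in ICI and 4.43 to 5.64 CPM in RT_ICI. The tested members Sbsn and Perp were higher in every RT_ICI library than in any ICI library without being called. Dsp, the other tested member, went the other way with overlap between the groups (log2 fold change -0.81, edgeR adjusted p = 0.482). Sbsn stood at 1.98, 2.72 and 2.09 CPM against 3.76, 4.19 and 3.27 CPM (edgeR adjusted p = 0.116), and Perp at 0.23, 0.377 and 0.0418 CPM against 1.24, 0.586 and 1.12 CPM (0.0783). The part of keratinocytes in the Col7a1 difference was not tested. The basal keratins Krt5 and Krt14 were each at 0 in 5 of the 6 libraries. Of 4 tested cartilage and tendon markers 0 were called, with a median log2 fold change of -0.64. The list summed to 9.06 to 12.5 CPM in ICI and 7.68 to 9.12 CPM in RT_ICI. Chad and Sox9 were lower in every RT_ICI library than in any ICI library, with log2 fold changes of -1.36 and -0.46. Matn3 (-0.83) and Scx (0.051) overlapped between the groups. Acan, the main cartilage proteoglycan, was at 0 in ICI 1 and at most 0.14 CPM elsewhere.

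Among the fibrillar chains 1 of 10 tested rose and 0 fell, with a median log2 fold change of 0.61. Col5a3 (ENSMUSG00000004098, chromosome 9, 20770050 to 20815067) encodes a minor chain of type V collagen, which regulates fibril diameter. It stood at 45.6, 49.4 and 66.1 CPM in ICI and 77.3, 123 and 126 CPM in RT_ICI, with RT_ICI 1 the nearest to the ICI libraries. The log2 fold change was 1.02 (SE 0.22, 2.03-fold, edgeR adjusted p = 0.0377). The other type V chains were not called: the log2 fold change was -0.20 for Col5a1 (edgeR adjusted p = 0.738) and 0.14 for Col5a2 (0.917). Without ICI 3, Col5a1 was at 0.28, and Col5a2 was at -0.33 without ICI 2 and at -0.46 without RT_ICI 1.

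Col11a2, a type XI chain that nucleates cartilage fibrils, lay just outside the threshold here, and was called in 5 of 18 alternative settings. It stood at 16.1, 21.6 and 15.7 CPM in ICI and 24.5, 70.3 and 46.0 CPM in RT_ICI, without overlap (log2 fold change 1.40, SE 0.36, edgeR adjusted p = 0.0533). Col27a1, another fibrillar chain known from cartilage, also had no overlap, at 1.44, 0.629 and 1.71 CPM against 1.74, 3.63 and 1.87 CPM (edgeR adjusted p = 0.21). Col2a1, the main cartilage collagen, stood at 13.7, 11.5 and 24.5 CPM in ICI and 14.6, 42.4 and 35.1 CPM in RT_ICI, with RT_ICI 1 inside the ICI range (edgeR adjusted p = 0.22). In all, 7 of the 34 tested collagens (20.6%) had every RT_ICI library above every ICI library, where 17.8% of all tested genes did. In the other direction it was 1 (2.94%), Col8a2, where 19.4% of all tested genes did.

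**Figure D2:**
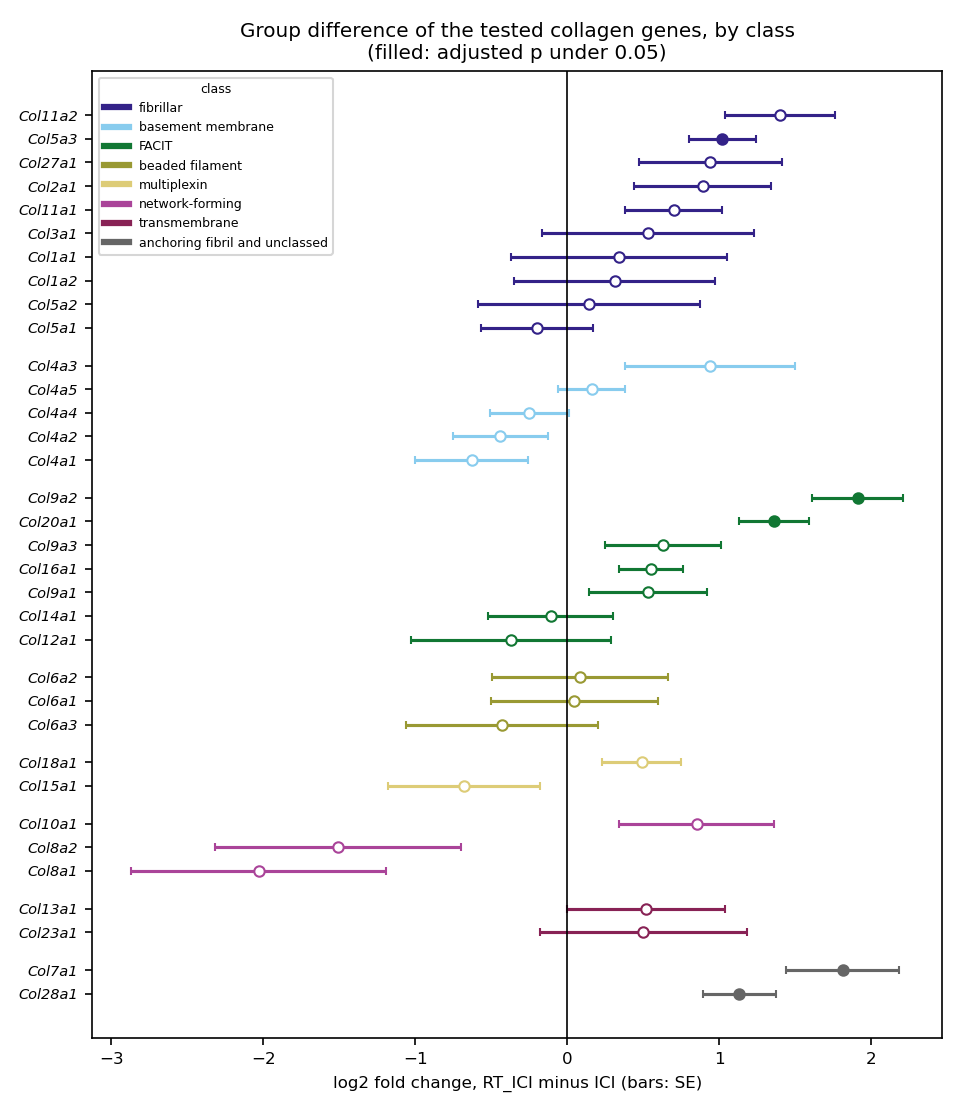
Log2 fold change (RT_ICI minus ICI, horizontal axis) with its SE for the 34 tested collagen genes, coloured by class, filled where the edgeR adjusted p was under 0.05. The 5 filled points lie between 1.02 and 1.91, and the SE bars of Col1a1, Col1a2 and Col3a1 cross 0.

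In the unpaired fit, the major fibrillar chains showed no difference that could be told from the spread between ICI libraries. Col1a1, which with Col1a2 makes type I collagen, stood at 104, 38.4 and 274 CPM in ICI and at 248, 151 and 128 CPM in RT_ICI. The ICI libraries spanned 7.14-fold and enclosed all RT_ICI libraries. The log2 fold change was 0.34 (SE 0.71, edgeR adjusted p = 0.774). Col1a2 stood at 91.8, 32.1 and 207 CPM in ICI and 176, 134 and 101 CPM in RT_ICI (log2 fold change 0.31, SE 0.66, edgeR adjusted p = 0.777). Col3a1, the chain of type III collagen, stood at 112, 31.4 and 211 CPM in ICI and 248, 155 and 108 CPM in RT_ICI (log2 fold change 0.53, SE 0.70, edgeR adjusted p = 0.636). All 3 genes were lowest in ICI 2, and without that library the log2 fold changes of Col1a1, Col1a2 and Col3a1 were -0.12, -0.14 and 0.065. Without ICI 3 they were 1.29, 1.13 and 1.24. With the replicate number as a block, which is not stated to mark pairs, all 3 were called higher. Their log2 fold changes were then 1.62, 1.5 and 1.72 (edgeR adjusted p = 0.0112, 0.0311 and 0.0246). The FPKM ratio of Col1a1 to Col1a2 was steadier, from 2.14 to 2.67 over the 6 libraries. Its absolute value depends on the transcript model, with a mean of 2.36 per union of exons and 1.12 per longest transcript.

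The basement membrane chains were called in neither direction (0 of 5 tested, median log2 fold change -0.25). Col4a1, which with Col4a2 makes the common form of type IV collagen, stood at 296, 158 and 399 CPM in ICI and 255, 141 and 154 CPM in RT_ICI (log2 fold change -0.63, SE 0.37, edgeR adjusted p = 0.274). Col4a2 stood at 194, 101 and 226 CPM in ICI and 167, 111 and 108 CPM in RT_ICI (log2 fold change -0.44, SE 0.31, edgeR adjusted p = 0.364). Both were lowest within ICI in replicate 2 and highest in replicate 3, and the groups overlapped. The 2 genes start head to head on chromosome 8 and their exons overlap by 22 bases. Col4a5 and Col4a4, chains of the specialised type IV networks of kidney and other tissues, had log2 fold changes of 0.16 (-0.08 without RT_ICI 4) and -0.25. Col4a3 was near the detection limit, at 0.105 to 0.426 CPM.

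The multiplexins of the vessel wall gave 0 calls of 2. Col18a1, the parent of endostatin, stood at 72.2, 38.4 and 77.1 CPM in ICI and 71.0, 98.7 and 94.7 CPM in RT_ICI (log2 fold change 0.49, edgeR adjusted p = 0.236). Col15a1 stood at 38.4, 15.2 and 69.5 CPM in ICI and 25.8, 27.6 and 23.3 CPM in RT_ICI (log2 fold change -0.68, edgeR adjusted p = 0.383). The RT_ICI libraries of Col15a1 were tightly grouped inside the wide ICI range.

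The beaded filament chains gave 0 calls of 3 tested. Col6a1 stood at 35.0, 13.2 and 70.2 CPM in ICI and 44.3, 42.1 and 35.8 CPM in RT_ICI (log2 fold change 0.045, edgeR adjusted p = 0.966). Col6a2 followed it with 34.6, 12.2 and 66.2 CPM against 51.7, 37.2 and 30.9 CPM (log2 fold change 0.085). Col6a3 stood at 38.7, 15.3 and 96.0 CPM in ICI and 41.0, 37.8 and 32.3 CPM in RT_ICI (log2 fold change -0.43). These 3 chains assemble into 1 type VI molecule. Their signs depended on the library left out: without ICI 2 they were at -0.38, -0.35 and -0.87, and without ICI 3 at 0.75, 0.76 and 0.44. The FPKM ratio of Col6a3 to Col6a1 was 0.405, 0.425 and 0.501 in ICI and 0.339, 0.328 and 0.330 in RT_ICI, without overlap (exact two-sided permutation p = 0.1, adjusted 0.5 over 10 ratios).

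The network-forming class had 0 calls of 3 and a median log2 fold change of -1.51. Col8a1, a chain of the short-chain type VIII collagen of vessels and cornea, stood at 15, 2.04 and 13.0 CPM in ICI and 4.65, 1.33 and 1.40 CPM in RT_ICI. ICI 2 lay inside the RT_ICI range, and edgeR gave an adjusted p of 0.158 (log2 fold change -2.03, SE 0.84), where DESeq2 gave 0.0195. Col8a2, its partner, stood at 0.575, 0.403 and 0.544 CPM in ICI and 0, 0.18 and 0.373 CPM in RT_ICI, without overlap (edgeR adjusted p = 0.235). Col10a1, the chain of hypertrophic cartilage, had a log2 fold change of 0.85, with 1.63 CPM in RT_ICI 1 and at most 0.676 CPM elsewhere. The transmembrane chains Col13a1 and Col23a1 (0 calls of 2) were likewise highest in RT_ICI 1, at 4.86 and 1.60 CPM. Without that library their log2 fold changes went from 0.52 and 0.50 to -0.22 and -0.65.

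The spread between ICI libraries was wide for many collagens. The ratio of the highest to the lowest ICI library had a median of 2.13 over the tested collagens and 1.34 over all tested genes. In RT_ICI the medians were 1.82 and 1.46. In 10 collagens (29.4%, against 5.12% of all tested genes) the ICI libraries spanned at least 4-fold: Col1a1, Col1a2, Col3a1, Col5a2, Col6a1, Col6a2, Col6a3, Col8a1, Col12a1 and Col15a1. An order with ICI 3 highest and ICI 2 lowest, noticed in the data, was held by 18 of 34 collagens (52.9%), by 8 of 12 fibroblast markers and by 19.4% of all tested genes. ICI 2 was the lowest of all 6 libraries for 18 collagens and ICI 3 the highest for 12. The highest library was RT_ICI 2 for 10 others.

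**Figure D3:**
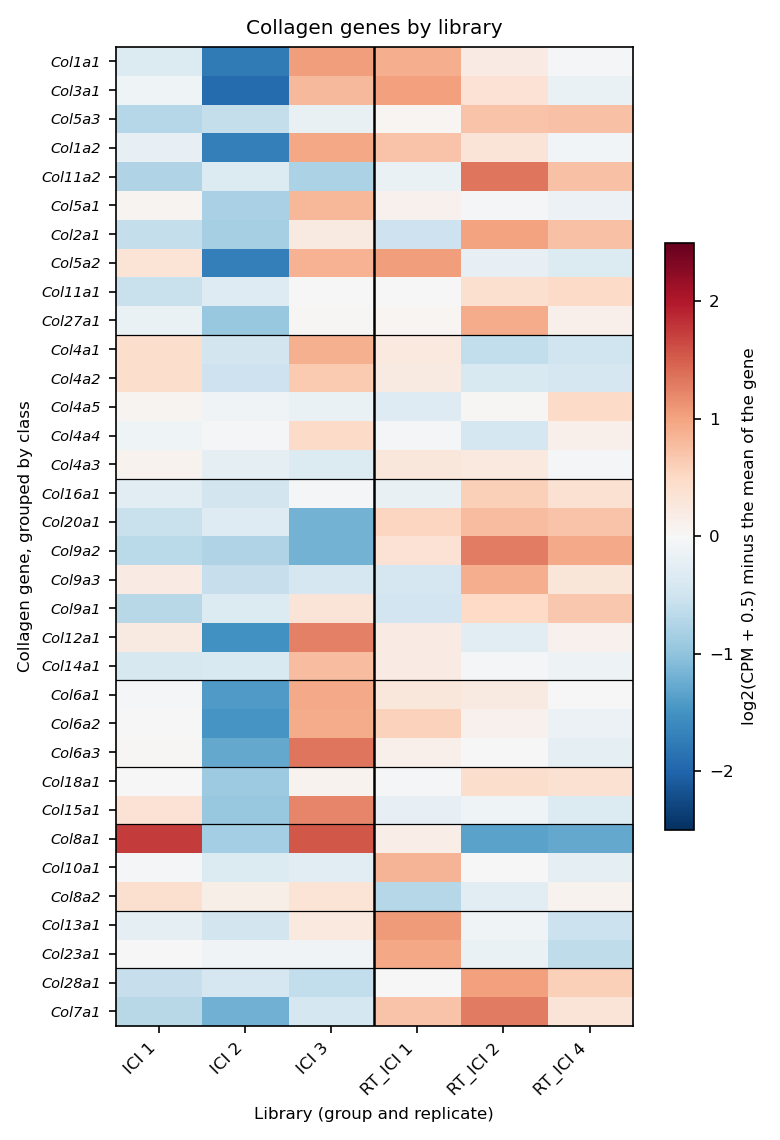
Log2(CPM + 0.5) of each tested collagen gene (rows, grouped by class) minus its mean over the 6 libraries (columns). ICI 2 is lowest for 18 of the 34 genes, and in the rows of Col9a2, Col20a1, Col7a1, Col28a1 and Col5a3 every RT_ICI library lies above every ICI library.

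Fibroblast markers were read beside the major fibrillar chains. Of 12 tested, 0 were called in either direction, and their median log2 fold change was 1.12. Their summed level was 89.8, 44.9 and 137 CPM in ICI and 172, 106 and 90.8 CPM in RT_ICI, lowest in ICI 2 as for Col1a1. Sfrp2, the secreted Wnt modulator named in the study's title, stood at 0.489, 0.151 and 2.03 CPM in ICI and 3.05, 2.12 and 1.35 CPM in RT_ICI (log2 fold change 1.27, SE 0.81, edgeR adjusted p = 0.311). The pericyte and smooth muscle list (0 of 12 called) summed to 187 to 333 CPM in ICI and 179 to 736 CPM in RT_ICI. Its median log2 fold change was -0.15, with 4 members above 0. Des weighed most in the highest sum, at 89, 57.7 and 9.22 CPM in ICI and 536, 153 and 27.2 CPM in RT_ICI. The endothelial list (0 of 12 called) summed to 404 to 547 CPM in ICI and 402 to 689 CPM in RT_ICI. Eng held 235 to 277 CPM and 229 to 252 CPM of these sums. The mean log2 deviation of the endothelial list was 0.30, -0.51 and 0.34 in ICI and 0.90, -0.37 and -0.66 in RT_ICI. The part of these cells in the levels of types I, III, IV and VI was not tested.

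**Figure D4:**
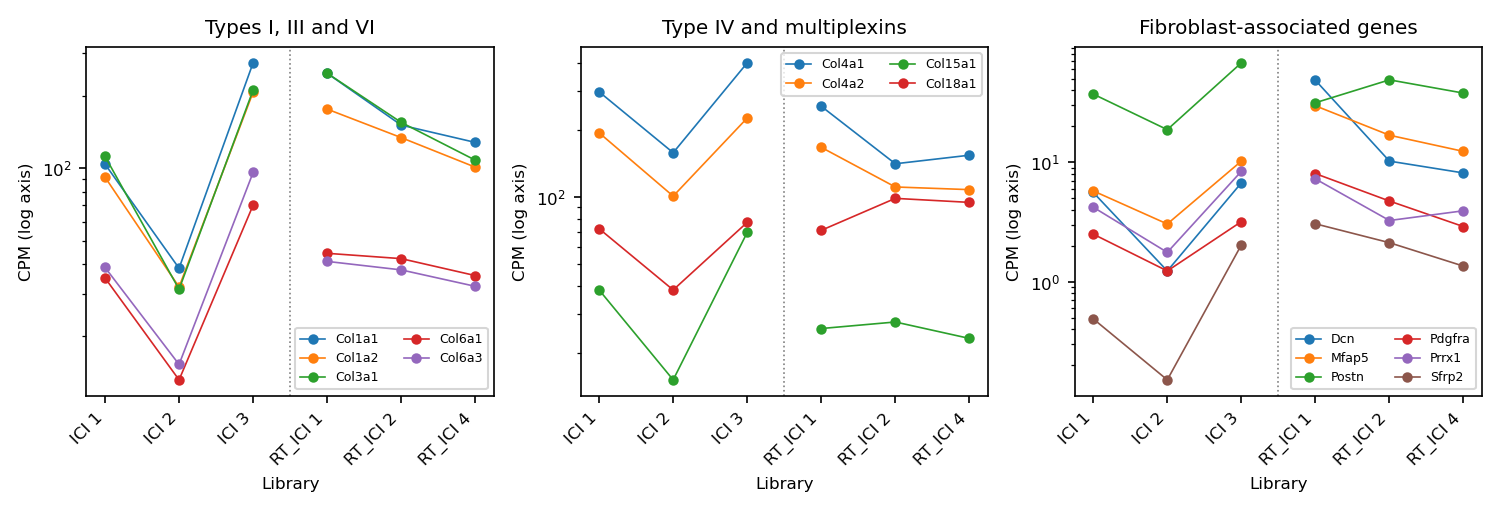
CPM by library (log axes) of type I, III and VI chains, of type IV and multiplexin chains, and of 6 fibroblast-associated genes, with lines joining the libraries of a group only to guide the eye. Every plotted gene is lowest within ICI in replicate 2. The fibroblast markers Lum (1.32, 1.53 and 5.16 CPM in ICI 1, 2 and 3) and Pi16 (0.316, 1.33 and 0.795 CPM), not plotted, were not lowest there.

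Other cell types differed between libraries as well. For the calls below, 4.46% of all tested genes were called higher and 4.72% lower. Markers of melanoma cells, the labelled cell type, summed to 17400 to 19900 CPM in ICI and 12900 to 19100 CPM in RT_ICI, with Mlana called higher, 1 of 10. The median log2 fold change of that list was -0.14, with 3 of 10 above 0. Adipocyte markers summed to 44.5 to 84.6 CPM in ICI and 157 to 270 CPM in RT_ICI, with Plin4, Lipe and Fabp4 called higher, 3 of 9. Fabp4 made up much of these sums, at 50.5, 39 and 55.7 CPM in ICI and 183, 90.6 and 127 CPM in RT_ICI. All 9 had log2 fold changes above 0, but Adipoq, Plin1 and Pck1 overlapped between the groups. Adipoq and Plin1 were highest of all libraries in ICI 3, at 2.2 and 1.32 CPM. Cfd, Cidec, Plin1 and Pck1 were each at 0 in at least 1 ICI library. Their part in the collagen calls was not tested. Skeletal muscle markers (0 of 10 called) summed to 256, 209 and 3.05 CPM in ICI and 2750, 1220 and 21.3 CPM in RT_ICI. The part of muscle in the collagen calls was not tested.

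Per length, Col28a1 had the highest mean over the 6 libraries, 45 FPKM, followed by Col4a1 at 31.3, Col1a1 at 24, Col4a2 at 22.8 and Col3a1 at 14.7 FPKM. The order differed between the groups: in ICI the mean of Col4a1 (38.1 FPKM) was above that of Col28a1 (28.2 FPKM). Group SDs were large. Col1a1 was at 21.2 ± 18.6 FPKM (SD, n = 3) in ICI and 26.8 ± 9.72 FPKM in RT_ICI, Col4a1 at 38.1 ± 16.2 FPKM and 24.6 ± 8.41 FPKM, and Col4a2 at 26.2 ± 9.87 FPKM and 19.4 ± 5.03 FPKM. Each gap between neighbours in this order was within the larger SD of the higher gene, so the order of neighbours is not resolved. With the longest transcript as the length, Col28a1 stayed first at 52.1 FPKM, while Col3a1 (25.9) and Col1a2 (23.1) moved up beside Col1a1 (26.5) and Col4a2 (23.4).

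Collagen transcripts are long, with a median of 5626.5 bases in the longest transcript against 2963.5 over all tested genes. After a correction of each library for transcript length and GC content, 4 collagens were called higher (11.8%, where 1.62% of all tested genes were) and 0 lower. Col9a2 (edgeR adjusted p = 0.0329), Col20a1 (0.0396), Col28a1 (0.0467) and Col7a1 (0.0472) passed, and Col5a3 did not (0.0565), with a log2 fold change of 0.92 against 1.02 before the correction. The median log2 fold change was 0.40 over collagens and 0.0082 over all tested genes.

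The genes that fold and modify collagen in the endoplasmic reticulum gave 0 higher and 2 lower of 18 tested, with a median log2 fold change of -0.19. Of all tested genes, 4.46% were called higher and 4.72% lower. P3h2, a prolyl 3-hydroxylase of basement membrane collagen, stood at 27.1, 26.0 and 23.4 CPM in ICI and 17.9, 13.7 and 16.9 CPM in RT_ICI (log2 fold change -0.66, SE 0.16, edgeR adjusted p = 0.0433). Colgalt1, which adds galactose to hydroxylysine, fell as well (log2 fold change -0.63, SE 0.16, edgeR adjusted p = 0.0479). Serpinh1, the collagen chaperone Hsp47, was not called but did not overlap, at 820, 930 and 838 CPM in ICI and 372, 565 and 694 CPM in RT_ICI (log2 fold change -0.67, edgeR adjusted p = 0.0889). The prolyl 4-hydroxylase subunit P4ha1 had a log2 fold change of -0.50 (edgeR adjusted p = 0.101), its partner P4hb one of -0.29 and the lysyl hydroxylase Plod2 one of -0.11. Of 8 procollagen secretion genes 0 were called, with a median of -0.38, and Tmed2, a cargo receptor of the early secretory pathway, was at -0.40.

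The genes that process procollagen outside the cell gave 2 higher and 0 lower of 12 tested, with a median log2 fold change of 0.61. The share called higher over all tested genes was 4.46%. Bmp1, the protease that removes the C-terminal propeptide, stood at 42.9, 35.3 and 37.6 CPM in ICI and 60.5, 64.6 and 60.8 CPM in RT_ICI (log2 fold change 0.68, SE 0.12, edgeR adjusted p = 0.0292). Pcolce, which enhances that cleavage, stood at 170, 173 and 129 CPM in ICI and 259, 249 and 311 CPM in RT_ICI (log2 fold change 0.79, SE 0.16, edgeR adjusted p = 0.0346). The groups did not overlap for either gene. The cross-linking enzymes were not called: Lox had a log2 fold change of 1.60 (SE 0.82, edgeR adjusted p = 0.238) and Loxl2 one of -0.42 (0.243). Sparc, a collagen-binding matrix protein, was at -0.51 (edgeR adjusted p = 0.112).

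Of 15 tested collagen-degrading proteases and their inhibitors 0 were called. Mmp2, a gelatinase, stood at 9.63, 7.17 and 14.6 CPM in ICI and 22.6, 17.0 and 18.4 CPM in RT_ICI, without overlap (log2 fold change 0.89, edgeR adjusted p = 0.0708). Mmp14, the membrane-bound collagenase, was at -0.0094 and the inhibitor Timp2 at -0.19. Among collagen receptors 0 were higher and 1 lower of 10, where 4.72% of all tested genes were called lower. Itga1, the alpha chain of a collagen-binding integrin, stood at 54.0, 39.5 and 47.5 CPM in ICI and 31.7, 26.6 and 29.0 CPM in RT_ICI (log2 fold change -0.69, SE 0.15, edgeR adjusted p = 0.0387). Its beta chain Itgb1 was at -0.51 (edgeR adjusted p = 0.0754), the receptor kinase Ddr2 at -0.52 (0.243) and Itga11 at 1.02 (0.225). Where 4.46% of all tested genes were called higher, 1 of 15 laminins and other partners of type IV collagen was higher and 0 lower. This was Lama5, a laminin alpha chain of mature vessels and epithelia, at 50, 60.6 and 60.0 CPM in ICI and 89.2, 152 and 143 CPM in RT_ICI (log2 fold change 1.17, SE 0.21, edgeR adjusted p = 0.029). Agrn, a heparan sulfate proteoglycan of basement membranes, was at -0.047.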

How the data were processed

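The authors deposited raw counts per gene, 1 whole number per gene and library, and the submitters' processing notes name HISAT2 and the builds GRCm38 and mm10. The sources used here do not give the counting tool, annotation, strand setting or versions, so reads of a gene and of one overlapping it cannot be told apart. No collagen shared over 6.07% of its exon length with another gene (Col9a3). No pair of libraries agreed within sampling noise (chi-square per degree of freedom at least 39.4).

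Counts were tested with edgeR 4.0.16 in R 4.3.3: filterByExpr, TMM scaling, the robust quasi-likelihood test of RT_ICI against ICI over all 16924 genes kept, and Benjamini-Hochberg adjustment, with calls at 0.05. FPKM used the union of exons of GENCODE M21 on GRCm38. The length and GC correction fitted splines with 5 degrees of freedom in each library and used them as offsets (99.6% of tested genes had both values). DESeq2 1.42.0 and limma-voom (limma 3.58.1) were alternatives. The test was tried on simulated data.

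The members, classes, lists and alternatives were chosen with earlier results of these data known. Named by rule were the called collagens, the 2 with the highest FPKM in each class, 10 set chains (types I, III, IV, VI, XV and XVIII), and called, most abundant or set members of each pathway list. Other collagens, and marker genes called or at 0, were named with their values in view, and some genes the rule took are not reported. The Schwann and nerve marker list as a whole is not reported here.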

Additional observations from a re-analysis of the deposited data

How the results depend on the processing

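The 5 calls (Col9a2, Col20a1, Col7a1, Col28a1, Col5a3) were all made under median-of-ratios and upper-quartile scaling, without mitochondrially encoded genes, without and with a stricter filter on low counts, under DESeq2 and limma-voom, and with robust estimation off. DESeq2 added 1 lower, Col8a1. Col11a2 was added as higher under DESeq2, upper-quartile scaling and the stricter filter. Leaving out each library in turn gave 0 to 7 higher, 0 lower and a median log2 fold change of 0.084 to 0.75. With length and GC correction but no RT_ICI 1 the median was 0.10. The difference in collagen share ran from -0.0347 to 0.0442 percentage points over these omissions. The shared replicate numbers 1 and 2 are not stated to mark pairs, and same-numbered libraries deviated together with r = 0.35 and 0.091. With the replicate number as a block, 7 were called (Col1a1, Col1a2 and Col3a1 gained, Col28a1 lost, median 0.85), and with length and GC correction too, 8 (Col28a1 regained at 0.0449, Col5a2 gained, Col9a2 lost at 0.0555 by edgeR adjusted p, median 0.87). Of all 16924 tested genes, 400 were called higher with the block and 390 with the block and the correction. Only 2 libraries a group inform these block fits. Uncalled chains changed sign as follows. Without a filter Col6a1 was at -0.014. With length and GC correction Col6a1 was at -0.043 and Col14a1 at 0.11. With that correction and no RT_ICI 1, Col6a1 was at -0.11, Col6a2 at -0.13, Col1a1 at -0.06, Col5a2 at -0.22, Col13a1 at -0.43 and Col23a1 at -0.61. Under the replicate block Col4a5 was at -0.14, Col5a1 at 0.41, Col6a3 and Col12a1 at 0.69, Col14a1 at 0.55 and Col15a1 at 0.14. With the block and the correction Col5a1 was at 0.39, Col6a3 at 0.75, Col12a1 at 0.85, Col14a1 at 0.73 and Col15a1 at 0.13. Over the omissions of 1 library, Col6a1 ran from -0.38 to 0.75, Col6a2 from -0.35 to 0.76, Col6a3 from -0.87 to 0.44, Col1a1 from -0.12 to 1.29, Col1a2 from -0.14 to 1.13, Col5a1 from -0.53 to 0.28 and Col12a1 from -0.85 to 0.46 (lowest without ICI 2, highest without ICI 3). Col13a1 ran from -0.22 to 0.86 and Col23a1 from -0.65 to 0.94 (without RT_ICI 1 and RT_ICI 4), Col5a2 from -0.46 to 0.66 (RT_ICI 1, ICI 3), Col14a1 from -0.35 to 0.47 (ICI 1, ICI 3) and Col4a5 from -0.08 to 0.34 (RT_ICI 4, RT_ICI 1). The cause of these changes was not tested. Leaving out a library gives 2 against 3, and the part of the smaller number of samples in the changed calls was not tested. The 10 untested chains had too few counts to pass the filter, and 3 counts equal 0.0627 to 0.14 CPM in these libraries.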
